A study of Arabidopsis thaliana with 12 samples.

Results

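The genes described here are 4 genes of auxin synthesis, response and inactivation: WES1, IAA29, YUC2 and YUC6. Their members are the probe sets whose single gene in the probe annotation of the array is one of these symbols, which gave 4 probe sets, 1 for each gene, among 22746 that are not controls. WES1 is locus AT4G27260 (probe set 253908_at), IAA29 is AT4G32280 (253423_at), YUC2 is AT4G13260 (254758_at) and YUC6 is AT5G25620 (246900_at). The first 3 lie on chromosome 4 and YUC6 lies on chromosome 5. RNA of Arabidopsis thaliana stamens (anther and filament) was hybridised to Affymetrix ATH1 arrays, on which a gene is read by a set of short oligonucleotide probes. There were 6 groups of 2 arrays: the ms35 mutant and a wild-type control, each at 3 labelled stages, named PMI and PMII for the first and second pollen mitosis, with the bicellular stage between them. The ms35 plants are labelled as a gene knock-out in Ler-0, and the control carries stock code N64, the source name Glabra and the name Ler in the array titles, so the labels do not settle whether both lines share every background allele. Both genotypes shared their growth conditions (22 °C, a day of 22 h and a night of 2 h), and no other treatment is labelled. The title of the series states the purpose, to find genes that MS35/MYB26 controls in the anther. Whether the arrays numbered 1 and 2 hold different plants is not labelled, and the p-values rest on the spread of these arrays alone, part or all of which may be technical.

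Auxin is a growth hormone made from tryptophan by a short enzymatic route, and YUC flavin monooxygenases, among them YUC2 and YUC6, carry out its last step, which gives indole-3-acetic acid. Auxin brings Aux/IAA repressors such as IAA29 to their receptor for destruction, which frees auxin response factors to act, and genes of the GH3 family, among them WES1 (also called GH3.5), join auxin to amino acids and so remove free hormone. GH3 and many Aux/IAA genes are themselves switched on by auxin. In Arabidopsis stamens, auxin made in the anther acts on filament growth, pollen maturation and the time at which the anther opens. MYB26, the transcription factor affected in ms35, is needed for wall thickening in the endothecium, the layer whose shrinkage opens the anther.

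The values are signals on a linear scale, and a signal of 25.5, the 40th percentile of all values, is called the low-signal limit here. Array medians ran from 37.3 to 45.3, arrays of the same group correlated with r from 0.899 to 0.937 across probe sets, and the ratio of 3' to 5' GAPDH controls, which reads RNA integrity, spanned 1.29 to 2.86, with the top values in replicate 2 of ms35 bicellular (2.37) and of wild type PMII (2.86). No probe set carried the name of MYB26, so the targeted gene was not analysed here, nor were the stamen identity genes AP3, PI and AG. Markers of anther contents were present: the summed signal of 5 tapetum genes (the layer that feeds developing pollen) lay at 417 and 593 in ms35 and 292 and 349 in wild type at labelled PMI, against 6070 to 10027 in ms35 and 6201 to 6750 in wild type at labelled PMII. The summed signal of 12 late pollen genes ran the other way, with 1618 and 1957 in ms35 and 2723 and 2765 in wild type at labelled PMI, and 337 and 538 in ms35 and 379 and 438 in wild type at labelled PMII. Tapetum is normally lost before pollen is mature, so these markers run against the usual order of the stages, and the stage names are used only as labelled. The summed signal of the carpel and perianth markers INO and SPT lay between 46.9 and 111 over the 12 arrays. In such bulk tissue, fewer cells of a type and less RNA per cell cannot be told apart.

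WES1 was lower in ms35 than in wild type, and the difference was widest at labelled PMII. At PMII its signal was 397 and 468 in the ms35 arrays, against 1547 and 1090.3 in the wild-type arrays. At PMI it was 278 and 205 in ms35, against 423 and 445 in wild type. Both ms35 arrays lay below both wild-type arrays at each of these stages. At the bicellular stage it was 524 and 308 in ms35, against 728 and 389 in wild type, so the groups overlapped there. Averaged over the stages, the log2 change of WES1, computed on log2(signal + 2.23), was -0.95 ± 0.18 (SE; limma adjusted p = 0.00932), a 1.93-fold lower level in ms35. The single-stage changes were -0.86 ± 0.32 at PMI (adjusted p = 0.235), -0.40 ± 0.32 at the bicellular stage (adjusted p = 0.740) and -1.59 ± 0.32 at PMII (adjusted p = 0.0382). Of the single stages, only PMII passed the threshold of 0.05, with a 3.01-fold lower level.

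From labelled PMI to PMII, WES1 rose in wild type and did not pass the threshold in ms35 in the fit to all 12 arrays, though it passed there from the arrays compared alone (adjusted p = 0.0378). Its mean signal was 241 ± 51.7 at PMI, 416 ± 153 at the bicellular stage and 432 ± 50.1 at PMII in ms35, and 434 ± 15.6, 559 ± 239.9 and 1319 ± 323 at the same stages in wild type (SD, n = 2 each). From PMI to PMII the log2 change was 0.85 ± 0.32 in ms35 (limma adjusted p = 0.0800) and 1.58 ± 0.32 in wild type (adjusted p = 0.00333). A test of whether the genotype effect differed between stages did not pass (limma F test, adjusted p = 0.634, unadjusted p = 0.0626), so a different course in the genotypes is not shown. Ordered by mean, wild type PMII stood highest and clear of the next group, wild type bicellular, and ms35 PMI stood lowest, below both arrays of ms35 bicellular. In between, wild type bicellular, wild type PMI, ms35 PMII and ms35 bicellular each overlapped the next. The tapetum sum given above overlapped between genotypes at PMII, but its 5 genes did not go one way there. Their log2 changes (ms35 minus wild type) ran from -0.43 (AT5G62080) to 1.32 (AT5G07230), and none was called, beside 0.948% of all probe sets. At PMI the late pollen sum was lower in both ms35 arrays than in both wild-type arrays. The log2 changes of its 12 genes there ran from -2.78 (ANX2) to 0.26 (AGL104), with a median of -0.59. None of them was called, beside 2.03% of all probe sets. The part of tapetum and late pollen in the WES1 values was not tested.

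**Figure D1:**
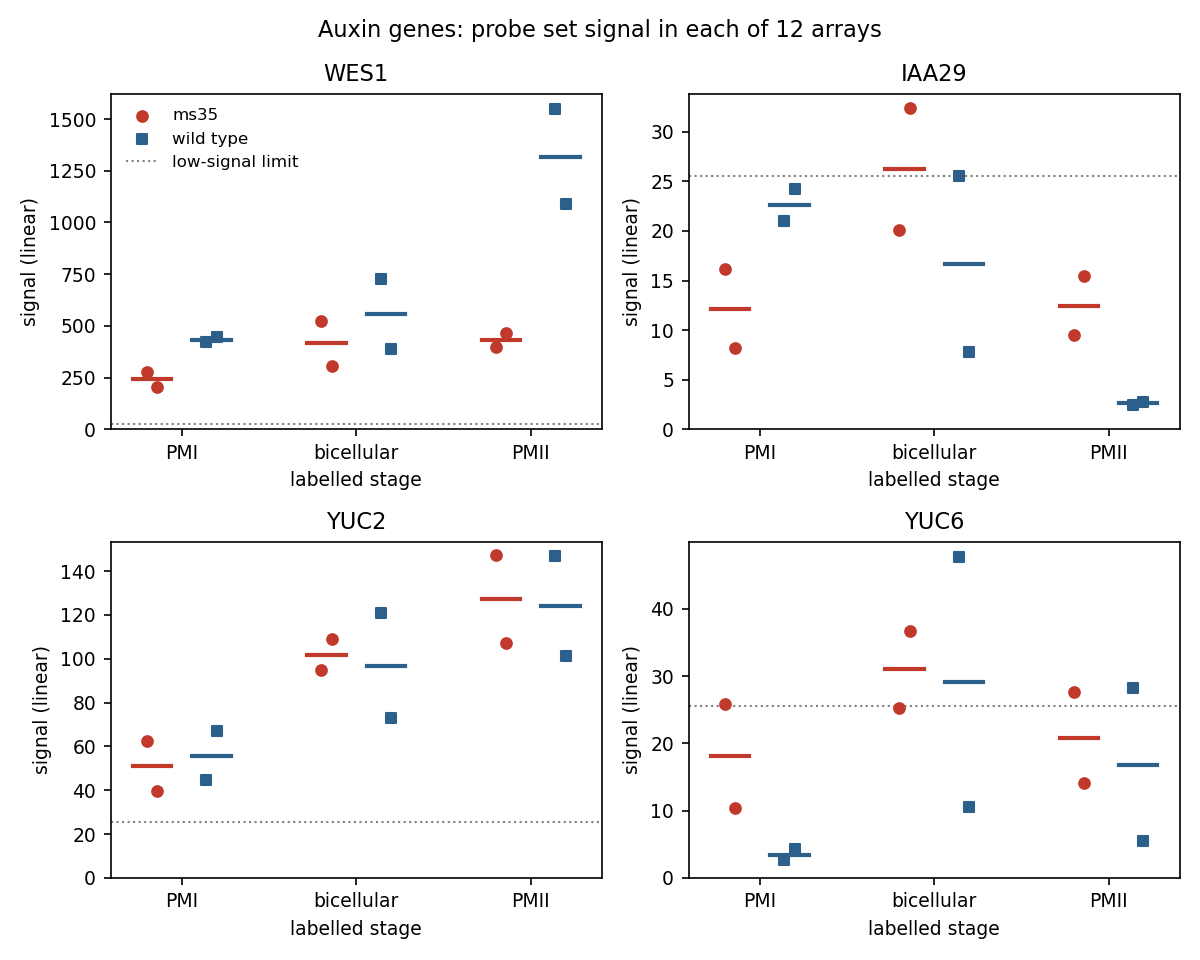
Signal (linear scale) of WES1, IAA29, YUC2 and YUC6 in each of the 12 arrays by labelled stage, with ms35 as circles and wild type as squares; short bars are means of 2 arrays and the dotted line is the low-signal limit of 25.5. WES1 stood at 397 and 468 in ms35 PMII, against 1547 and 1090.3 in wild type PMII, while the YUC2 values of both genotypes overlapped at each stage.

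The averaged WES1 call held in 22 of 23 alternative settings, and was lost only without the intensity trend in the variances (adjusted p = 0.0507), where its size was the same -0.95. The call at PMII was lost without any 1 of the 4 PMII arrays (adjusted p = 0.191 and 0.114 without ms35 replicates 1 and 2, 0.177 and 0.102 without wild type replicates 1 and 2), without any 1 of the 4 PMI arrays (0.0520, 0.0526, 0.0703 and 0.0700 in the same order), without both arrays of highest GAPDH ratio (0.0667), with median centring (0.0826) and without the trend (0.151). The log2 change at PMII stayed between -1.84 and -1.34 over these alternatives.

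YUC2, which makes auxin, had nearly the same mean signal in ms35 and wild type at each stage. At PMI it was 62.5 and 39.8 in ms35, against 44.6 and 67.0 in wild type. At the bicellular stage it was 94.8 and 109 in ms35, against 121 and 73.1 in wild type. At PMII it was 147 and 107 in ms35, against 147 and 101.5 in wild type. The 2 genotypes overlapped at all 3 stages. Averaged over the stages the log2 change was 0.01 ± 0.20 (limma adjusted p = 0.991) with a 95% interval from -0.42 to 0.43. At single stages the change was -0.13 ± 0.34 at PMI, 0.11 ± 0.34 at the bicellular stage and 0.04 ± 0.34 at PMII. The 95% intervals were -0.86 to 0.61, -0.62 to 0.85 and -0.70 to 0.77 in that order. A difference at a single stage is thus not excluded. The interaction with stage had adjusted p = 0.969 (limma F test).

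YUC2 differed between stages instead. Its mean signal was 51.1 ± 16.1 at PMI, 102 ± 10.1 at the bicellular stage and 127 ± 28.4 at PMII in ms35, and 55.8 ± 15.8, 96.9 ± 33.7 and 124 ± 32.2 in wild type (SD, n = 2 each). From PMI to PMII it rose by 1.29 ± 0.34 on the log2 scale in ms35 (limma adjusted p = 0.0180), a 2.45-fold change, and by 1.13 ± 0.34 in wild type (adjusted p = 0.0257), a 2.19-fold change. In both genotypes every PMII array lay above every PMI array. The step from PMI to the bicellular stage had 0.99 ± 0.34 in ms35 (adjusted p = 0.140) and 0.76 ± 0.34 in wild type (adjusted p = 0.143), and the step on to PMII had 0.30 ± 0.34 and 0.37 ± 0.34 (adjusted p = 0.739 and 0.671). In the order of means, the PMII and bicellular groups of both genotypes overlapped their neighbours, the bicellular wild-type group stood clear of the PMI groups, and the 2 PMI groups overlapped each other. The rise in ms35 lost its call without ms35 PMI replicate 2 (adjusted p = 0.144) or ms35 PMII replicate 1 (0.147). The rise in wild type lost it without wild type PMI replicate 1 (0.171) or wild type PMII replicate 1 (0.163), with quantile normalization (0.0545), with median centring (0.0801) and without the variance trend (0.05004). The median of all tested probe sets itself shifted by 0.09 in ms35 and 0.19 in wild type over this step. The tapetum sum rose and the late pollen sum fell over the same step. The summed signal of 3 green tissue genes (PRK, RCA and LHCB4.1) rose too. It went from 1129 and 1568 to 3637 and 4323 in ms35, and from 1172 and 1435 to 3811 and 3835 in wild type. The part of these tissues in the YUC2 values was not tested.

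YUC6, the other synthesis gene, was near the low-signal limit, which it exceeded in 5 of 12 arrays. At PMI its signal was 25.9 and 10.4 in ms35, against 2.59 and 4.22 in wild type, so the groups did not overlap and 1 of the 4 arrays was above the limit. At the bicellular stage it was 25.3 and 36.7 in ms35, against 47.7 and 10.5 in wild type. At PMII it was 27.6 and 14.1 in ms35, against 28.2 and 5.46 in wild type. No group had both arrays above the limit, and the arrays of wild type bicellular differed from each other more than any 2 group means did. The averaged log2 change was 0.89 ± 0.48 (limma adjusted p = 0.366; 95% interval -0.17 to 1.94), and the changes at the single stages were 1.76 ± 0.84, 0.38 ± 0.84 and 0.53 ± 0.84 in stage order. The largest stage step, from PMI to the bicellular stage in wild type, was 2.18 ± 0.84 (adjusted p = 0.0934). Ordered by mean, only wild type PMI, the lowest group, stood apart from its neighbour. The interval of the averaged effect holds both 0 and a rise of 1.94, so neither a difference nor its absence is shown.

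IAA29, the response repressor, was also near the limit, with 2 of 12 arrays above it, 1 in each bicellular group. At PMI its signal was 16.2 and 8.15 in ms35, against 21.0 and 24.2 in wild type. At the bicellular stage it was 20.1 and 32.4 in ms35, against 25.5 and 7.77 in wild type. At PMII it was 9.50 and 15.4 in ms35, against 2.48 and 2.78 in wild type. The ms35 arrays lay below the wild-type arrays at PMI and above them at PMII, with overlap in between. None of the 3 genotype changes passed (limma): -0.84 ± 0.71 at PMI (adjusted p = 0.674), 0.74 ± 0.71 at the bicellular stage (adjusted p = 0.804) and 1.57 ± 0.71 at PMII (adjusted p = 0.439), and the test of a difference between stages had adjusted p = 0.657 (unadjusted p = 0.0901). The averaged change was 0.49 ± 0.41 (adjusted p = 0.596).

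Between labelled PMI and PMII, IAA29 fell by 2.35 ± 0.71 on the log2 scale in wild type (limma adjusted p = 0.0270), while ms35 had 0.06 ± 0.71 (adjusted p = 0.967). Every array of both wild-type groups was below the low-signal limit, so no fold is given, and the size depended on the pseudocount, from -1.05 with 16 to -3.10 with none. The call was lost without wild type PMI replicate 1 (adjusted p = 0.0876) or replicate 2 (0.113), without wild type PMII replicate 1 (0.0807) or replicate 2 (0.0694), without both arrays of highest GAPDH ratio (0.0813) and from the arrays compared alone (0.0927). In the order of means, wild type PMII was the lowest group and stood clear of ms35 PMI above it, and the 5 other groups each overlapped the next.

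**Figure D2:**
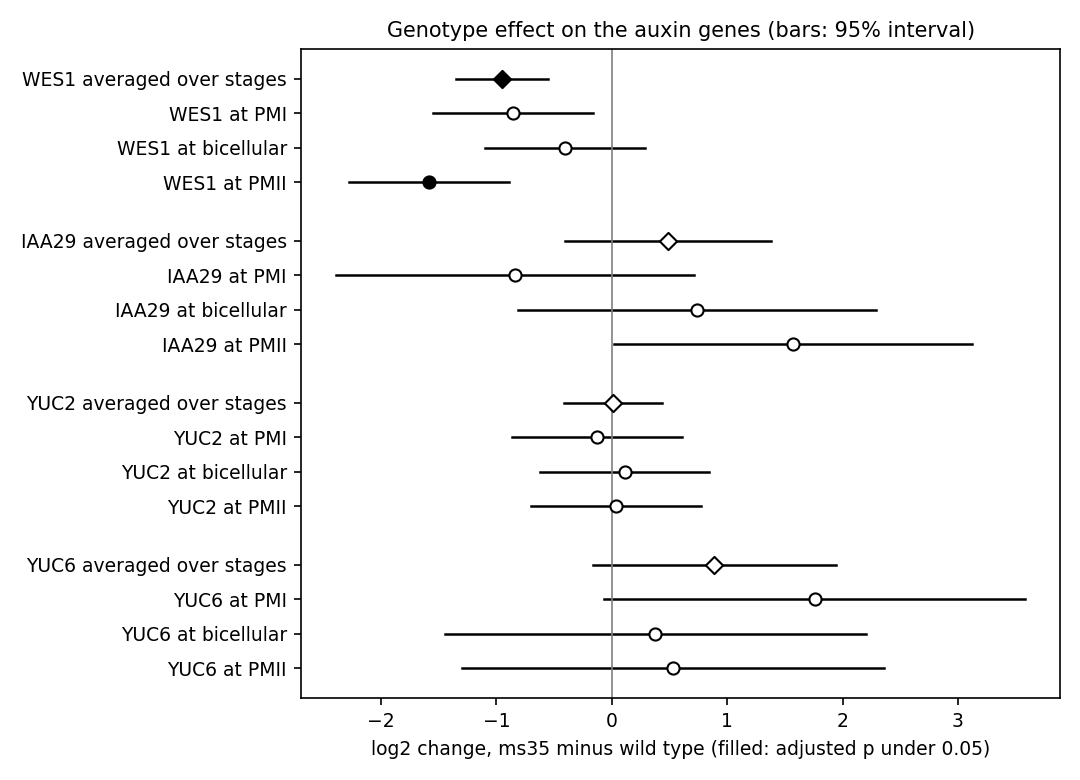
Log2 change (ms35 minus wild type) of the 4 genes averaged over stages (diamonds) and at each labelled stage (circles), with 95% intervals from the limma fit; filled symbols passed the adjusted p threshold of 0.05. Only WES1 averaged over stages (-0.95) and at PMII (-1.59) is filled, and YUC2 lies within 0.13 of zero at every stage.

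Across the 4 genes, 1 of 4 was called lower and none higher in the averaged genotype effect, against 5.27% of all 16464 tested probe sets called, 2.24% higher and 3.03% lower. The median log2 change was 0.25 for the 4 genes and 0.02 for all probe sets, so the count rests on WES1 alone. At PMI none of 4 was called (1 at an unadjusted limma p under 0.05; 2.03% of all probe sets called, 1.00% higher and 1.03% lower), at the bicellular stage none of 4 (none at an unadjusted p under 0.05; 1.77% of all called, 0.401% higher and 1.37% lower), and at PMII 1 of 4, lower (0.948% of all called, 0.431% higher and 0.516% lower). The interaction test called none of the 4 (limma F test; none at an unadjusted p under 0.05; 0.194% of all called). The 4 genes were chosen with earlier results of these data known, so these counts describe them and nothing more.

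For the stage steps, 2 of 4 rose and 1 fell in wild type from PMI to PMII (29.0% of all probe sets called, 17.0% higher and 11.9% lower), and 1 of 4 rose in ms35 over the same step (21.3% of all called, 11.7% higher and 9.62% lower). Those that rose were WES1 and YUC2 in wild type and YUC2 in ms35, and IAA29 was called lower in wild type, where all 4 of its PMI and PMII arrays were below the low-signal limit, so that call compares values not above the limit. From PMI to the bicellular stage none of 4 was called in ms35 (limma; 2 at an unadjusted p under 0.05; 2.64% of all called, 1.63% higher and 1.01% lower) or in wild type (limma; 2 at an unadjusted p under 0.05; 18.1% of all called, 10.8% higher and 7.29% lower). From the bicellular stage to PMII none of 4 was called in ms35 (limma; none at an unadjusted p under 0.05; 0.413% of all called, 0.231% higher and 0.182% lower) or in wild type (limma; 2 at an unadjusted p under 0.05; 1.55% of all called, 0.541% higher and 1.01% lower). These steps share arrays with each other and with the genotype effects, so their calls are not independent.

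**Figure D3:**
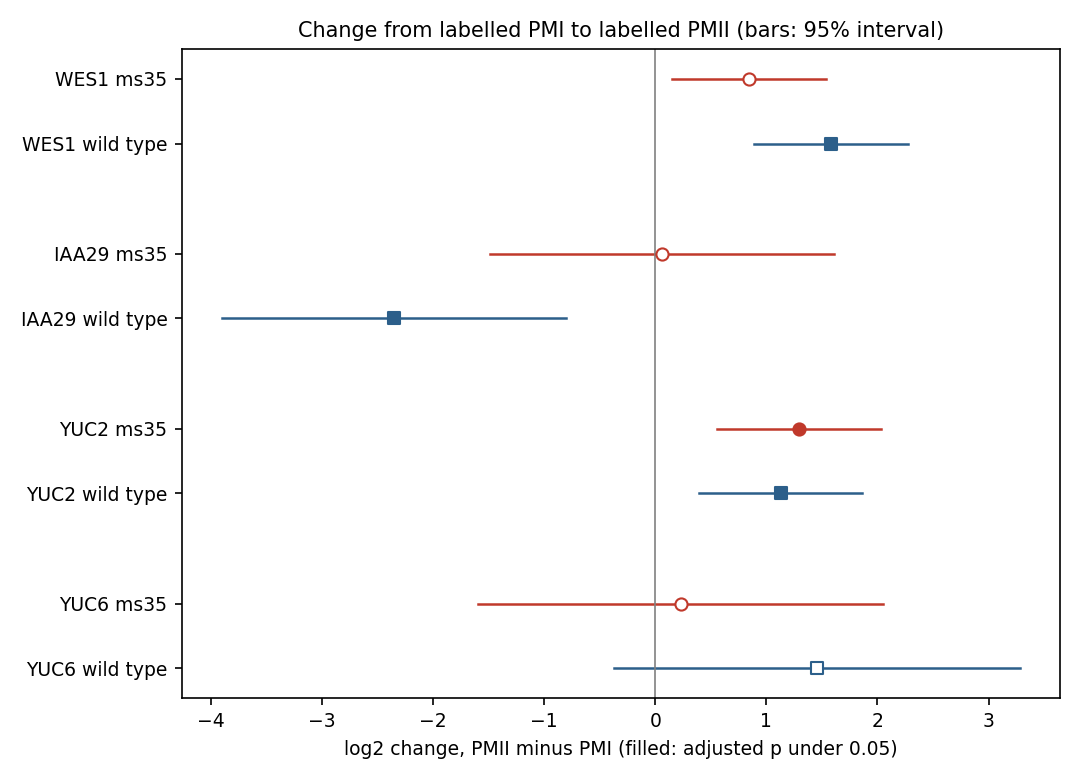
Log2 change from labelled PMI to labelled PMII of the 4 genes in ms35 (circles) and wild type (squares), with 95% intervals from the limma fit; filled symbols passed the adjusted p threshold of 0.05. YUC2 changed by 1.29 in ms35 and 1.13 in wild type, and WES1 by 0.85 in ms35 and 1.58 in wild type.

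The other genes of the pathway were taken from lists of 109 auxin loci, of which 20 had a named probe set and 10 passed the filter on low signal. None of 8 receptor genes, 15 response factors or 17 transport genes on the lists had a named probe set, nor did any SAUR gene, so these steps were not analysed here. Of the 10 that did not pass the filter, 6 were below the low-signal limit in every array and 4 exceeded it in 1 array, with a highest signal of 34.7; they included the synthesis genes YUC4 and YUC11, the repressors IAA20, IAA30, IAA31, IAA33 and IAA34, and GH3.1. The 6 tested genes beside the 4 were the repressor IAA18, the conjugating enzymes GH3.3, GH3.17 and GH3.9, the glucosyltransferase UGT74D1, which acts on an oxidised form of auxin, and AT1G14130. In the averaged genotype effect 1 of these 6 was lower and none higher, beside 3.03% of all probe sets called lower and 2.24% higher, and GH3.17 was that gene. At PMI 1 of 6, again GH3.17, was lower, beside 1.03% of all called lower, and at the bicellular stage and at PMII none was called (limma; 1 at an unadjusted p under 0.05 at each).

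GH3.17, like WES1 an enzyme that joins auxin to an amino acid, had its genotype difference at labelled PMI. There its signal was 35.9 and 43.7 in ms35, against 254 and 299 in wild type. At the labelled bicellular stage and PMII the arrays of both genotypes lay between 10.4 and 32.1. The groups were far apart at PMI and near or below the low-signal limit at the other labelled stages. Its log2 change was -2.73 ± 0.44 at PMI (limma adjusted p = 0.00730) and -1.004 ± 0.26 averaged over the stages (adjusted p = 0.0413), and its interaction with stage did not pass (adjusted p = 0.151, unadjusted p = 0.000840). The call at PMI was lost without ms35 PMI replicate 1 (adjusted p = 0.0595) or wild type PMI replicate 1 (0.0508) or 2 (0.0844), with -2.85 to -2.60 in size. The averaged call was lost in 14 of 22 settings: without either PMI array of ms35 (adjusted p = 0.102 and 0.0713) or of wild type (0.0911 and 0.129), without either bicellular array of ms35 (0.0802 and 0.0694), without wild type bicellular replicate 1 (0.112), ms35 PMII replicate 2 (0.105) or wild type PMII replicate 2 (0.106), without both arrays of highest GAPDH ratio (0.147), and in 4 other settings. The late pollen sum was also lower in ms35 at PMI (1618 and 1957, against 2723 and 2765 in wild type). None of its 12 genes was called there, and AGL104 and AGL30 went the other way (log2 change 0.26 each). The part of late pollen in the GH3.17 values was not tested.

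From PMI to PMII, 1 of the 6 other genes rose and 2 fell in ms35, beside 21.3% of all probe sets called (11.7% higher and 9.62% lower). In wild type 2 rose and 2 fell, beside 29.0% of all called (17.0% higher and 11.9% lower). GH3.3 was the gene that rose in both genotypes, GH3.9 rose in wild type, and GH3.17 and UGT74D1 fell in both. From PMI to the bicellular stage in wild type, GH3.9 was called higher (2.89 ± 0.79, limma adjusted p = 0.0253). GH3.17 (-3.77 ± 0.44, 0.000296) and UGT74D1 (-2.49 ± 0.48, 0.00500) were called lower, beside 10.8% of all higher and 7.29% lower. From there to PMII in wild type, GH3.3 was called higher (2.95 ± 0.61, 0.0360), beside 0.541% of all. Of 24 alternative settings, 19 kept this GH3.9 call and 17 this GH3.3 call. Without the variance trend GH3.9 (limma adjusted p = 0.0543) and GH3.3 (0.145) lost these calls. GH3.9 also lost it from the arrays compared alone (0.0517), and GH3.3 with robust moderation (0.153). With each array left out in turn, the log2 change lay between 1.38 and 4.40 for GH3.9 and between 2.47 and 3.44 for GH3.3. In ms35 none of the 6 was called over these steps. GH3.3 had 325 and 103 at PMI, 1307 and 442 at the bicellular stage and 2353 and 1614 at PMII in ms35, and 103 and 278, 333 and 170, and 2138 and 1613 at the same stages in wild type. From PMI to PMII it rose by 3.39 ± 0.61 on the log2 scale in ms35 (limma adjusted p = 0.00270) and by 3.43 ± 0.61 in wild type (adjusted p = 0.00165), a change that held in all 24 alternative settings in both. At the bicellular stage both ms35 arrays lay above both wild-type arrays, but the genotype change of 1.67 ± 0.61 did not pass (adjusted p = 0.299). GH3.9 had 16.4 and 7.95 at PMI, 13.9 and 27.9 at the bicellular stage and 21.1 and 11.9 at PMII in ms35, and 24.4 and 1.07, 61.2 and 73.8, and 142 and 99.1 in wild type. In wild type it rose by 3.69 ± 0.79 from PMI to PMII (adjusted p = 0.00456) against 0.40 ± 0.79 in ms35 (adjusted p = 0.769), and at PMII its genotype change was -2.73 ± 0.79 (adjusted p = 0.168; interaction adjusted p = 0.558). Both wild type PMI arrays of GH3.9 were below the low-signal limit, so the size of its wild-type rise is uncertain: it was 2.18 without wild type PMI replicate 2, 5.197 without replicate 1, and 2.36 with a pseudocount of 16, and it passed in each. The genotype change at PMII passed with a pseudocount of 16 (-2.07, adjusted p = 0.0203), with ms35 and wild type PMII compared alone (0.0225) and without wild type PMI replicate 1 (0.0400) or 2 (0.0334), and the averaged change of -1.28 ± 0.45 (adjusted p = 0.150) passed without wild type PMI replicate 2 (-1.78, adjusted p = 0.00743) and with a pseudocount of 16 (-1.06, adjusted p = 0.0120). Among the 6 tested conjugation and catabolism genes, the WES1, GH3.9 and GH3.17 arrays of ms35 lay below those of wild type at PMII. The GH3.3, UGT74D1 and AT1G14130 arrays overlapped there. GH3.17 was near the low-signal limit, with 19.0 and 10.4 in ms35 against 20.8 and 32.1 in wild type. Of these genes only WES1 was called at PMII in the fit to all 12 arrays (GH3.17 limma adjusted p = 0.583). The share of all probe sets whose arrays separate in this way was not computed.

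UGT74D1 fell between stages in both genotypes. Its signal was 135 and 254 at PMI, 63.8 and 38.7 at the bicellular stage and 28.9 and 49.9 at PMII in ms35, and 355 and 380, 58.1 and 69.2, and 19.7 and 64.8 at the same stages in wild type. From PMI to the bicellular stage it changed by -1.85 ± 0.48 on the log2 scale in ms35 (limma adjusted p = 0.0657). This step passed in 6 of 24 alternative settings, among them quantile normalization (0.0454). Its size lay between -2.30 and -1.40 with each array left out in turn. From PMI to PMII UGT74D1 changed by -2.22 ± 0.48 in ms35 (adjusted p = 0.00706) and by -3.27 ± 0.48 in wild type (adjusted p = 0.000563). The ms35 call was lost without ms35 PMI replicate 2 (0.0757) or ms35 PMII replicate 1 (0.0752). GH3.17 changed over the same step by -1.35 ± 0.44 in ms35 (adjusted p = 0.0482, past the threshold in 7 of 23 alternative settings and lost, for example, without either PMI array of ms35, at 0.1005 and 0.199, or either PMII array of ms35, at 0.0688 and 0.238; also without either wild type PMI array, at 0.0729 and 0.0743, either ms35 bicellular array, at 0.0550 and 0.0549, or wild type PMII replicate 2, at 0.0511) and by -3.31 ± 0.44 in wild type (adjusted p = 0.000321). Neither IAA18 nor AT1G14130 was called in any contrast, though from PMI to PMII in ms35 both passed without ms35 PMII replicate 2 (-0.98 with adjusted p = 0.0417, and -1.47 with adjusted p = 0.0336). AT1G14130 also passed there with quantile normalization (-1.07, adjusted p = 0.0487). Their averaged genotype changes were 0.12 ± 0.16 and 0.33 ± 0.21 (adjusted p = 0.765 and 0.464).

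**Figure D4:**
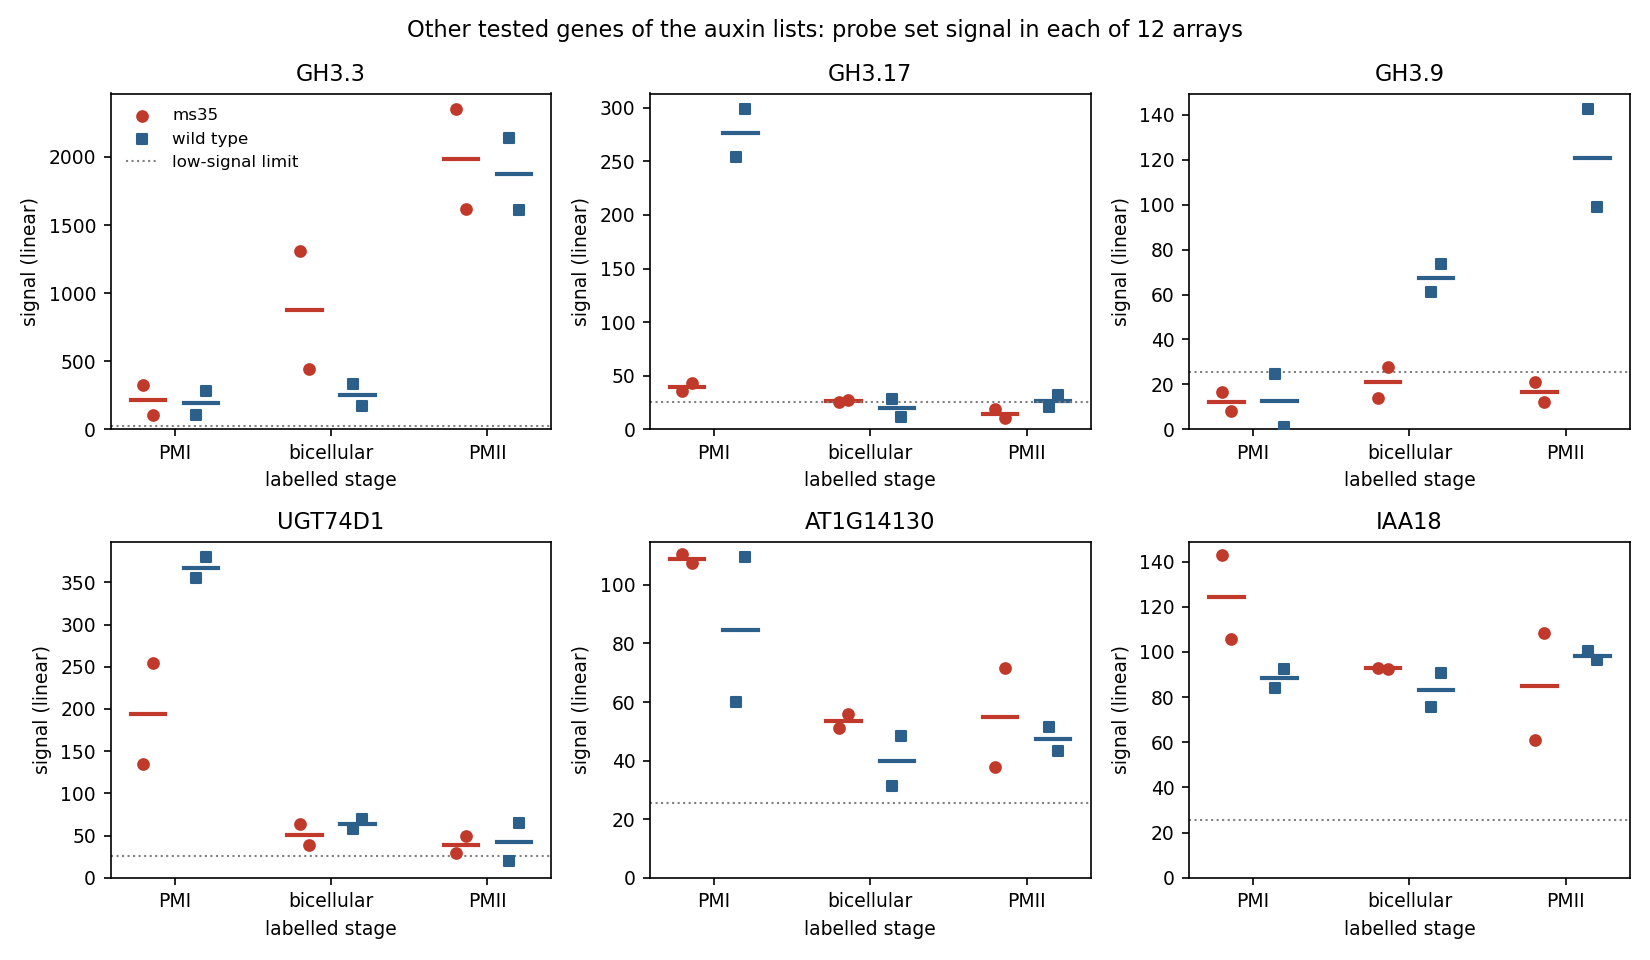
Signal (linear scale) of the 6 other tested genes of the auxin lists in each of the 12 arrays by labelled stage, with ms35 as circles and wild type as squares; short bars are means of 2 arrays and the dotted line is the low-signal limit of 25.5. GH3.17 stood at 35.9 and 43.7 in ms35 PMI against 254 and 299 in wild type PMI, and GH3.3 reached 1613 to 2353 in the PMII arrays of both genotypes.

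The genes most like each of the 4 in pattern were found by Pearson's r of log2 signal over the 12 arrays among 9200 other single-gene probe sets. Each r below is the top of 9200 values over arrays that share stages and scaling, and it describes these arrays only. For WES1 they were CBL, a cystathionine beta-lyase of methionine synthesis (r = 0.920), AT1G15200 (r = 0.917) and AT2G31810 (r = 0.916). CBL had 207 and 201 in ms35 PMII, against 272 and 239 in wild type PMII, a narrower spread than that of WES1. For YUC2 they were AT4G34670 (r = 0.944), BOB1 (r = 0.942) and AT2G44120 (r = 0.939). BOB1 had 189 and 98.4 at PMI and 392.4 and 275 at PMII in ms35, and 146 and 168 at PMI and 368 and 254 at PMII in wild type, so both genotypes went the same way as they did for YUC2. For IAA29 they were AT3G24840 (r = 0.862), AT1G67410 (r = 0.856) and WRKY42, a WRKY transcription factor (r = 0.854). For YUC6 they were AT5G52890 (r = 0.887), AT5G11340 (r = 0.883) and AT5G15910 (r = 0.879). None of these 12 genes is on the auxin lists, but only 10 list genes were tested, so few of the 9200 could be.

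Neighbours on the chromosome were taken only from loci with a tested probe set of a single named gene. Among the 40 such loci nearest to each of the 4 genes, 20 on each side, the averaged genotype effect was called for 3 around WES1 (7.5%), 2 around YUC6 (5%) and none around IAA29 or YUC2. The share over all tested probe sets, which include those without a single named gene, was 5.27%.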

How the data were processed

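The authors deposited 1 table of signal intensity per probe set of the ATH1 array, on a linear scale, for 12 samples. Per the submitters' processing notes it was made with MAS5 and GCOS; no version is named there. Arrays have no read depth, so their number, 2 in each group, limits the precision.

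From the deposited signal, log2(signal + 2.23) was taken, 2.23 being the 10th percentile of all values. The 64 control probe sets among 22810 were dropped, and the 16464 with at least 2 arrays above 25.5 were tested. The probe annotation gave 1 gene for 13513 probe sets, several for 503 and none for 8730, and 13436 of the single genes matched the TAIR10.1 gene table. Limma 3.58.1 in R 4.3.3 fitted 6 group means to all 12 arrays, with an intensity trend in the variances and Benjamini-Hochberg adjustment over all tested probe sets at 0.05, for 10 contrasts and an interaction F test. Intervals of 95% are not adjusted. The script was tested on simulated data with independent normal noise. The same change was planted at all 3 stages, in 100 probe sets for each size. Planted genotype changes of log2 1 were recovered in 63% of cases in the averaged contrast, and in 11% to 20% at single stages. For changes of log2 2 the shares were 83% and 58% to 66%. A single-stage change that did not pass is therefore weak evidence of no change. False calls were 5 of 151 in the averaged contrast, 11 of 89 at PMI, 8 of 90 at the bicellular stage and 5 of 74 at PMII. At single stages the false share was thus above the threshold of 0.05. The text names the 4 genes, every tested gene of the auxin lists, and the 3 single-gene probe sets most correlated with each of the 4. The genes and lists were chosen with earlier results of these data known. Alternatives covered scaling, pseudocount, filter, replicate block, variance model, array weights, the arrays used and each array left out; leaving out the pair of arrays with the highest GAPDH ratio was added after seeing the data.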

Additional observations from a re-analysis of the deposited data

How the results depend on the processing

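For the averaged WES1 effect, 22 of 23 alternatives kept the call. Without the intensity trend its value was -0.95 with an adjusted p of 0.0507, and the cause was not tested. Leaving out each of the 12 arrays gave values from -1.10 to -0.80, all past the threshold. Of 40 effects of the 4 genes in single contrasts, 6 passed, and none of these changed sign in any of the 24 alternatives. Of the 34 that did not pass, 32 passed in no alternative. WES1 passed from PMI to PMII in ms35 with the replicate block (0.85, adjusted p = 0.0383) and from the arrays compared alone (adjusted p = 0.0378), and from the bicellular stage to PMII in wild type with the replicate block (adjusted p = 0.0330), with a pseudocount of 16 (0.0473), and without ms35 bicellular replicate 1 (0.0475) or 2 (0.0458).

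The replicate numbers were checked for pairing: over the 15 pairs of groups, the replicate differences correlated with r from -0.13 to 0.18, and r was over 0.1 in 4 of them, so not every pair deviated together and the block was kept as an alternative only. Those 4 were ms35 PMI with wild type PMII, and the 3 pairs among ms35 bicellular, ms35 PMII and wild type PMII. The averaged WES1 effect with the replicate block was -0.95 (adjusted p = 0.00300), and AT1G14130 passed with it from PMI to PMII in ms35 (-1.03, adjusted p = 0.0461). The stricter filter left IAA29, YUC6 and GH3.17 untested.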
